A study of Drosophila melanogaster with 4 samples.

Results

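The tubulin genes of Drosophila S2 cells were described in nascent RNA. The set comprised 10 genes of the 16612 in the authors' table, chosen by name and each found as 1 row: the alpha genes alphaTub84B, alphaTub84D, alphaTub85E and alphaTub67C, the beta genes betaTub56D, betaTub60D, betaTub85D and betaTub97EF, and the gamma genes gammaTub23C and gammaTub37C. The series held 4 libraries of S2 cells, a hemocyte-like line from late embryos: 2 of 5'GRO-seq (replicates 1 and 2), in which capped nascent RNA marks transcription starts, and 2 of GRO-seq, in which all run-on RNA reports ongoing transcription. All came from unmodified, untreated cells as far as the labels say, so no condition was contrasted. The GRO-seq columns are named Sample3 and Sample4 and carry no replicate number, and the labels do not say whether libraries came from separate cultures, so the spread between them may be technical only.

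Alpha- and beta-tubulin join as a dimer, and dimers assemble into the microtubules that form the spindle, the axoneme and the tracks of cargo transport. Gamma-tubulin sits at microtubule organising centres and seeds new microtubules. The fly divides the work among isoforms: alphaTub84B, alphaTub84D, betaTub56D and gammaTub23C are used in most cells, alphaTub67C and gammaTub37C are maternal products of the ovary and early embryo, and betaTub85D serves the male germline and its sperm axonemes. A further group is tissue-restricted, with alphaTub85E known from testis and from muscle attachment cells, betaTub60D from developing mesoderm and the nervous system, and betaTub97EF from gut and some other tissues.

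The values behind the GRO-seq table rested on 6572500 reads in Sample3 and 2474818 in Sample4, recovered from the deposited FPKM (fragments per kilobase of the transcript's span, introns included, scaled to the library's total). The median gene had 26 and 7 reads. For 5'GRO-seq the totals were 13979543 reads (replicate 1) and 6710787 reads (replicate 2), and the authors called 6782 and 9387 start sites. Of 9 hemocyte markers, 8 had at least 1 FPKM in both GRO-seq libraries, against 50.7% of all genes. Their summed levels were 571 and 1251 FPKM (Sample3 and Sample4), of which the collagen gene Cg25C made up 276 and 863 FPKM, and their medians were 49.2 and 40.5 FPKM. At least 1 FPKM in both was also reached by 3 of 10 testis markers (sums of 9.81 and 9.05 FPKM), 3 of 8 female germline markers (35.4 and 21.8), 1 of 8 muscle markers (12.7 and 10.8) and 2 of 6 neuron markers (12.4 and 14.0). The spermatocyte factors can and aly and the sperm genes dj, Mst84Da and Mst87F were listed at 0 in both libraries, as was bcd, the maternal anterior determinant. The 3 testis markers of at least 1 FPKM were topi (4.10 and 4.44 FPKM), fzo (3.82 and 2.705) and bam (1.43 and 1.60). The 3 such female germline markers were gus (27.3 and 13.4 FPKM), swa (5.05 and 5.12) and osk (1.49 and 1.73). NimC1 was the hemocyte marker below 1 FPKM (0.926 and 0.757). Pxn (2.84 and 3.59 FPKM), He (2.71 and 5.53) and Sr-CI (3.70 and 3.68) were also low, at levels like those of topi and fzo. The remaining hemocyte markers, Hml, srp, crq, vkg and Cg25C, had at least 40.47 FPKM in both libraries.

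The general alpha isoform alphaTub84B was the most transcribed tubulin gene of the set. Its row lies on chromosome arm 3R from 2912321 to 2914561 of dm3, plus strand. It had 374 FPKM in Sample3 and 441 FPKM in Sample4, from 5512 and 2445 reads. The 95% exact Poisson intervals, which like all intervals here cover counting error only, were 365 to 384 FPKM and 424 to 459 FPKM. They did not overlap, so the libraries differed by more than counting error. In Sample3 98.5% of all genes had lower values, and in Sample4 99.1%.

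alphaTub84D, which encodes nearly the same protein (3R, 3356475 to 3358454, plus strand), stood far lower. Its values were 29.8 FPKM in Sample3 and 50.4 FPKM in Sample4, from 387 and 247 reads. Per kilobase, alphaTub84B exceeded it 12.6-fold in Sample3 and 8.75-fold in Sample4. The coding sequences of these genes are closely alike, and how the authors placed reads that match both is not given in the sources used here, so the split between them is uncertain.

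The remaining alpha genes were near the limit of detection. The maternal gene alphaTub67C (3L, 9674368 to 9676470, plus strand), needed for female meiosis and the first nuclear divisions, had 1.01 FPKM in Sample3 and 1.92 FPKM in Sample4, from 14 and 10 reads. Their intervals of 0.554 to 1.70 FPKM and 0.922 to 3.54 FPKM overlapped. The nearest row upstream of alphaTub67C, CG16717 on the same strand across a gap of 207 bp, had 4.09 and 2.39 FPKM. alphaTub85E (3R, 5556943 to 5558972, minus strand) had 1.27 FPKM in Sample3, from 17 reads, and was listed at 0 in Sample4. A count of 0 in Sample4 allows up to 0.597 FPKM (3 reads). The two-sided exact Poisson limits of the libraries nearly met, with 0.735 FPKM as the upper limit in Sample4 and 0.743 FPKM as the lower limit in Sample3. At the Sample3 level, 6.40 reads would have fallen in Sample4. Among the GRO-seq libraries this gene was thus seen in Sample3 only, and 5'GRO-seq replicate 1 had a start site 6 bp inside its annotated end. For low values in a bulk culture, few cells with transcription and little transcription per cell cannot be told apart.

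Among the beta genes, 2 were transcribed at a high level, betaTub56D and the tissue-restricted betaTub60D. betaTub56D, the general beta-tubulin (2R, 15334824 to 15337104, minus strand), had 162 FPKM in Sample3 and 291 FPKM in Sample4, from 2435 and 1643 reads. Intervals of 156 to 169 FPKM and 277 to 306 FPKM left a wide gap between the libraries.

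betaTub60D (2R, 20193404 to 20200622, plus strand) had 83.7 FPKM in Sample3 and 97.0 FPKM in Sample4, from 3971 and 1733 reads over its span of 7219 bp. In Sample3 96.7% of genes were lower, and in Sample4 97.3%. It exceeded the general gene alphaTub84D 2.81-fold in Sample3 and 1.92-fold in Sample4, in each library by more than counting error. betaTub56D stood above it 1.94-fold in Sample3 and 3.0-fold in Sample4. Markers of muscle, a mesodermal tissue in which betaTub60D is known, were mostly low in the same libraries: Mef2, a myogenic transcription factor, had 11.4 and 9.94 FPKM, Mhc, the muscle myosin heavy chain, had 0.062 and 0.128 FPKM, and up, troponin T, was listed at 0. Of the neuron markers, elav had 10.1 FPKM in both libraries and brp had 1.66 and 3.15 FPKM, while the others were below 1 FPKM in both. Whether the betaTub60D level relates to either cell type was not tested.

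betaTub97EF (3R, 23792730 to 23814106, minus strand), the longest row of the set at 21377 bp, had 4.22 FPKM in Sample3 and 3.48 FPKM in Sample4. Because of this length the low level still rested on 593 and 184 reads, and the intervals of 3.89 to 4.58 FPKM and 2.99 to 4.02 FPKM overlapped. Both lay above the median over the whole table, 1.98 FPKM (Sample3) and 1.38 FPKM (Sample4).

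betaTub85D (3R, 5234105 to 5236004, minus strand), which builds the sperm axoneme, was the lowest of all. It had 1 read in Sample3 (0.080 FPKM, interval 0.0020 to 0.446 FPKM) and was listed at 0 in Sample4, which allows up to 0.638 FPKM. Its neighbours on the same strand, Task7 and CG44261, were also at or near 0 in both libraries.

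In the gamma pair, gammaTub23C of somatic centrosomes carried nearly all of the signal. This gene (2L, 2972891 to 2974858, plus strand) had 14.1 FPKM in Sample3 and 13.4 FPKM in Sample4, from 182 and 65 reads, the closest agreement between libraries among the 5 highest genes. The maternal gene gammaTub37C (2L, 19183970 to 19185726, minus strand), used in the female germline, had 0.347 FPKM from 4 reads in Sample3 and 0.460 FPKM from 2 reads in Sample4. gammaTub23C exceeded it 40.6-fold in Sample3 and 29.0-fold in Sample4, ratios that rest on very few gammaTub37C reads.

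**Figure D1:**
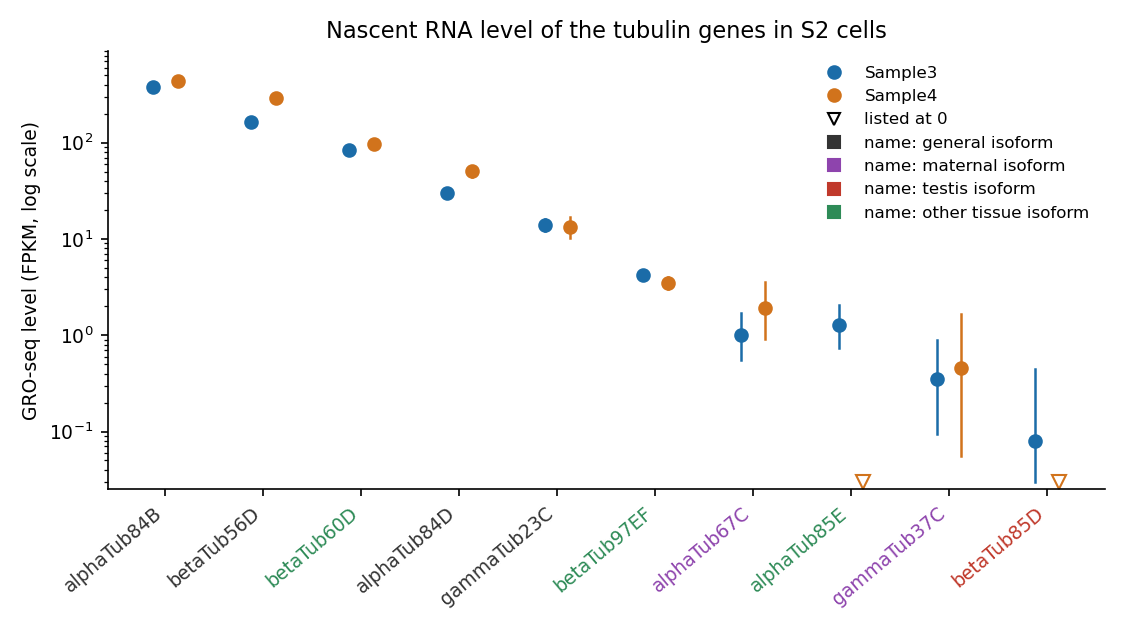
GRO-seq level of each tubulin gene in FPKM on a log scale, in order of the mean, with 1 point per library (Sample3 left, Sample4 right) and the 95% exact Poisson interval of its reads. Gene names are coloured by isoform class and open triangles stand for values listed at 0. The 4 general isoforms lie between 13.4 and 441 FPKM in both libraries, and the maternal and testis isoforms lie below 2 FPKM.

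Set side by side, each general isoform was above each maternal or testis isoform in both libraries. The 4 general genes ranged from 14.1 to 374 FPKM in Sample3 and from 13.4 to 441 FPKM in Sample4. The 2 maternal genes ranged from 0.347 to 1.01 FPKM and from 0.460 to 1.92 FPKM. The lowest general gene, gammaTub23C, exceeded the highest of the maternal and testis genes, alphaTub67C, 9.35-fold by means over both libraries, 13.9-fold in Sample3 and 6.95-fold in Sample4. The 3 tissue-restricted genes ranged from 1.27 to 83.7 FPKM in Sample3 and from 0 to 97.0 FPKM in Sample4, with betaTub60D highest and alphaTub85E lowest. These are descriptions of single genes, and with classes of 1 to 4 genes no test was made.

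At least 1 FPKM in both libraries was reached by 7 of the 10 genes (70.0%), against 50.7% of all genes. The exceptions were alphaTub85E, gammaTub37C and betaTub85D. In order of mean level (SD, n = 2), the genes were alphaTub84B at 408 ± 47.1 FPKM, betaTub56D at 227 ± 91.0, betaTub60D at 90.4 ± 9.41, alphaTub84D at 40.1 ± 14.6, gammaTub23C at 13.7 ± 0.513 and betaTub97EF at 3.85 ± 0.525 FPKM. They were followed by alphaTub67C at 1.47 ± 0.643 FPKM, alphaTub85E at 0.637 ± 0.902, gammaTub37C at 0.403 ± 0.0799 and betaTub85D at 0.040 ± 0.0566 FPKM. Library values of neighbours in this order overlapped in 2 cases, alphaTub67C with alphaTub85E and alphaTub85E with gammaTub37C, so the place of alphaTub85E is not settled. The library values of the other neighbours were apart. Counting intervals nevertheless overlapped for gammaTub37C and betaTub85D in both libraries, and for betaTub97EF and alphaTub67C in Sample4. Ordered by mean reads rather than per kilobase, betaTub60D would precede betaTub56D and betaTub97EF would precede alphaTub84D. For the second pair this holds in the deeper Sample3 (593 against 387 reads) and not in Sample4 (184 against 247 reads).

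Within each family 1 gene held most of the level per kilobase. alphaTub84B made up 92.1% of the summed alpha FPKM in Sample3 and 89.4% in Sample4, and alphaTub84D 7.32% and 10.2%. The beta family was less uneven, with betaTub56D at 64.9% and 74.3% and betaTub60D at 33.4% and 24.8% of the sum. gammaTub23C made up 97.6% and 96.7% of the gamma sum. Sums over the alpha genes were 406 FPKM in Sample3 and 493 FPKM in Sample4, over the beta genes 250.5 and 391.7 FPKM, and over the gamma genes 14.4 and 13.8 FPKM. The alpha sum thus exceeded the beta sum 1.62-fold in Sample3 and 1.26-fold in Sample4, and the gamma sum 28.2-fold and 35.7-fold. These shares and ratios take each gene over its annotated row. For betaTub56D both 5'GRO-seq lists placed a site 1996 bp upstream of that row, and its bearing on the beta values was not tested.

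**Figure D2:**
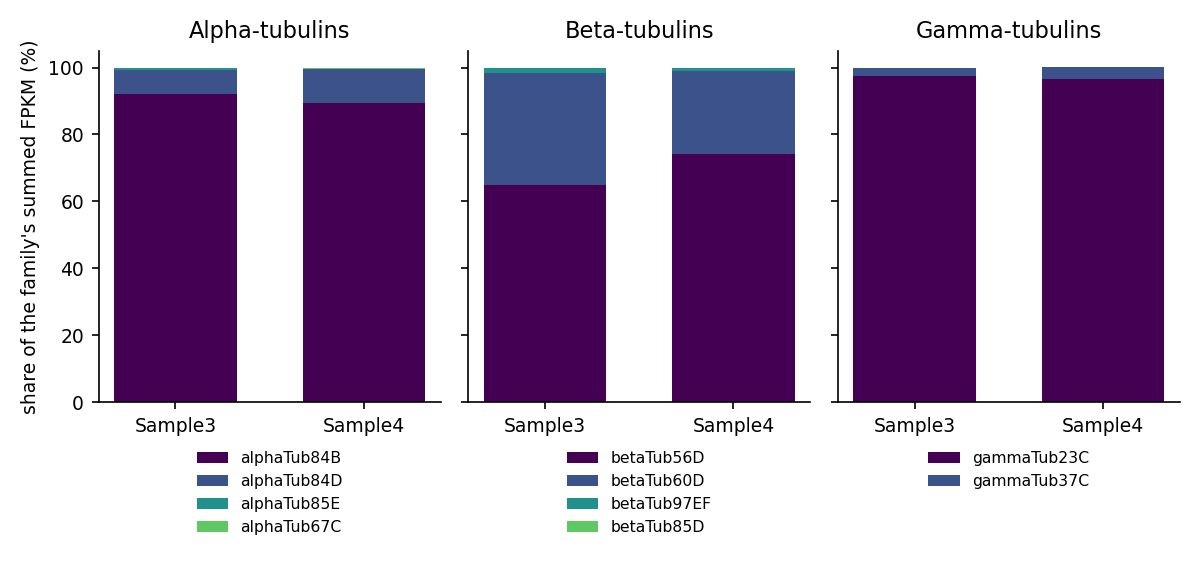
Share of each family's summed FPKM (percent) by gene in both GRO-seq libraries, for alpha-, beta- and gamma-tubulins. alphaTub84B and gammaTub23C fill most of their bars, and betaTub60D takes 33.4% of the beta sum in Sample3 and 24.8% in Sample4.

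The GRO-seq libraries differed most for betaTub56D and alphaTub84D among the well-covered tubulin genes. On the log2(FPKM + 1) scale, which understates differences of low genes, Sample4 over Sample3 was 0.84 for betaTub56D and 0.74 for alphaTub84D. It was 0.24 for alphaTub84B, 0.21 for betaTub60D, -0.07 for gammaTub23C and -0.22 for betaTub97EF. Over the 3591 genes with at least 100 reads in both libraries, the median was 0.08 and the SD 0.63. Of these genes 13.2% differed by more than betaTub56D and 17.2% by more than alphaTub84D, whereas 63.8% differed by more than alphaTub84B, 66.7% by more than betaTub60D and 65.4% by more than betaTub97EF. Of the 7 tubulin genes with at least 1 FPKM in both libraries, 5 were higher in Sample4 (71.4%, against 42.3% of all such genes). Over all such genes the median was -0.112, below the 0.08 of those with at least 100 reads. That second set holds alphaTub84B, alphaTub84D, betaTub56D, betaTub60D and betaTub97EF, so the shares compare genes of unlike coverage. Values were apart by more than 1.5-fold for 3 of the 7 (42.9%, against 38.1%), a share near that of other genes.

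**Figure D3:**
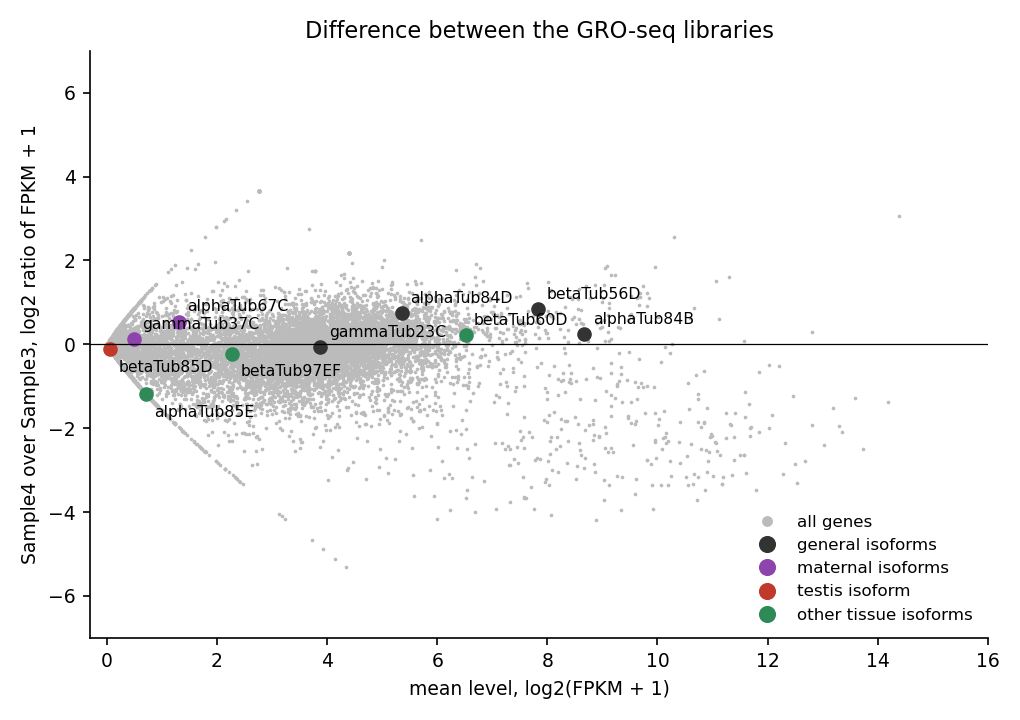
Log2 ratio of FPKM + 1, Sample4 over Sample3, against the mean level as log2(FPKM + 1), with each gene of the table as a grey point and the tubulin genes coloured by class. The tubulin genes lie within the cloud of other genes, between 0.84 for betaTub56D and -1.19 for alphaTub85E, which is listed at 0 in Sample4.

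Start sites were called by the authors in each 5'GRO-seq library alone, as positions with at least 4-fold more tags than the matching GRO-seq control and than the surrounding 1000 bp. At least 20 tags were needed in replicate 1 and 14 in replicate 2. A gene without a call may therefore still have a start. A site on the gene's strand within 100 bp of the annotated 5' end was present at 4 of the 10 tubulin genes in replicate 1 (40%, against 24.5% of all genes) and at 1 in replicate 2 (10%, against 14.8%). Restricted to genes reaching 1 FPKM in each GRO-seq library, the numbers were 3 of 7 tubulin genes (42.9%, against 44.4%) in replicate 1 and 1 of 7 (14.3%, against 27.2%) in replicate 2. These shares were near the background in replicate 1, and in replicate 2 they rest on a single gene.

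gammaTub23C was the 1 tubulin gene with a site at its annotated end in both lists. Both placed the start at 2972872, the same base, 19 bp upstream of the annotated 5' end. Such shared sites, within 5 bp of each other, were found at 7.84% of all genes. On the other strand both lists had a site at 2972437, which is 454 bp upstream of gammaTub23C and 71 bp inside the annotated 5' end of Rrp1, a DNA repair nuclease gene transcribed in the opposite direction.

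alphaTub84B, alphaTub84D and alphaTub85E had their site in replicate 1 only. This was common in the whole table: 4066 genes had a site within 100 bp in replicate 1 and 2451 in replicate 2. Many other genes thus had one in replicate 1 only. alphaTub84B started at 2912323, 2 bp inside the annotated end, and this site stood at place 12 of 6782 in the file, whose order has no stated basis. In replicate 2 no site on its strand was listed from 2500 bp upstream to the gene end, although the gene led the set in GRO-seq level. alphaTub84D started at 3356478, 3 bp inside, and alphaTub85E at 5558966, 6 bp inside. The alphaTub85E site thus fell at a gene with 17 reads in Sample3 and none in Sample4. Sites at genes under 1 FPKM in either library were uncommon, at 4.05% of such genes in replicate 1 and 1.98% in replicate 2.

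betaTub56D had no site near the annotated end of the row used, but a shared site far upstream of it. In both lists the site lay at 15339100 on the minus strand, 1996 bp upstream of that end, at place 44 of 6782 in replicate 1 and place 227 of 9387 in replicate 2. No other annotated 5' end on that strand was closer: the next, of EloC, an elongin subunit gene, lay 5309 bp further along. RefSeq lists 2 transcripts each for betaTub56D, betaTub60D, betaTub97EF and gammaTub37C, while the authors' table holds 1 per gene, and the ends of the others were not used here. If transcription of the gene begins at this site, its FPKM leaves out the first 1996 bp. A shared site 501 to 2000 bp upstream with no site within 100 bp was found at 162 of 8417 genes of at least 1 FPKM in both libraries (1.92%).

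betaTub60D had no called site at all. Neither list held one on either strand from 2500 bp upstream to 500 bp beyond its end, at 83.7 and 97.0 FPKM. Of the 638 protein-coding genes with a mean of at least 50 FPKM, 43.1% had no site within 100 bp in either list, and 21% had none on their strand from 2000 bp upstream to the gene end. The other tubulin genes at this level were alphaTub84B, with a site at its end, and betaTub56D, with the upstream one. betaTub97EF, alphaTub67C, gammaTub37C and betaTub85D also had no site on their own strand in this range. In all, 6 of the 10 tubulin genes (60%) had a site within 100 bp in neither list, against 71.4% of all genes.

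**Figure D4:**
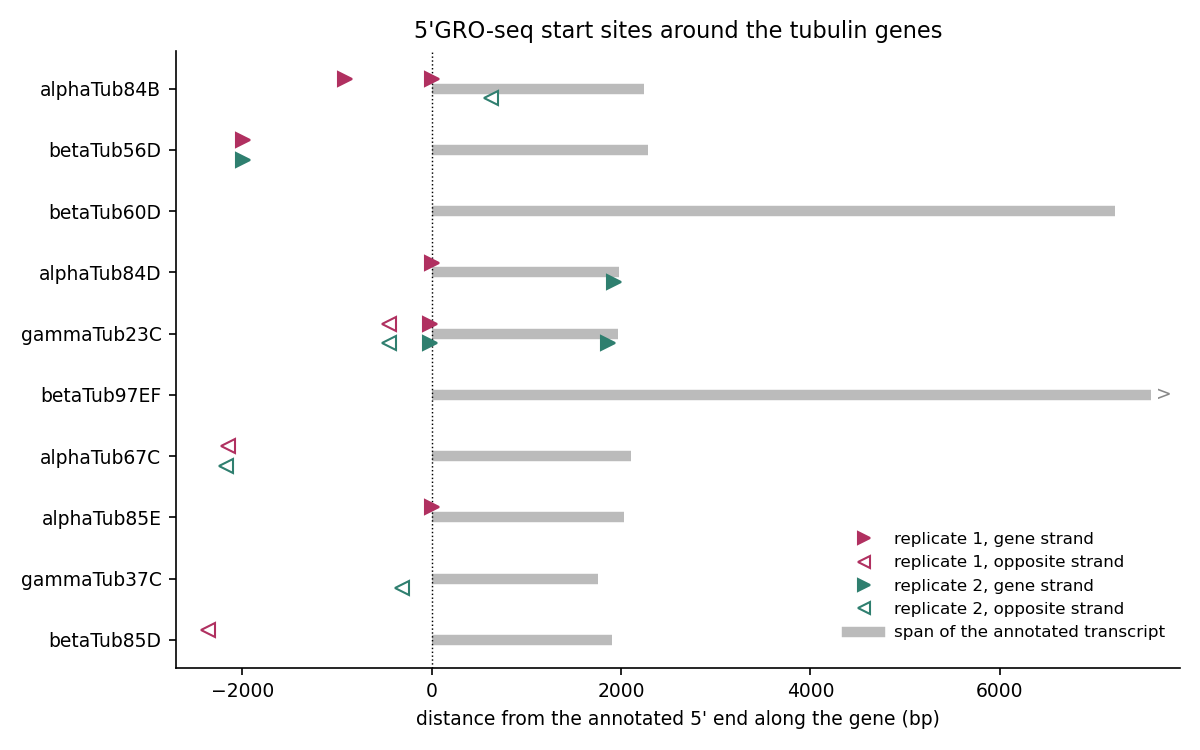
Start sites of both 5'GRO-seq lists by distance in bp from the annotated 5' end, one line per tubulin gene in order of GRO-seq level, with replicate 1 above and replicate 2 below the grey bar of the transcript's span. Filled arrowheads are on the gene's strand and open ones on the opposite strand; the bar of betaTub97EF is cut at the right. Sites coincide in both lists for gammaTub23C at its end and for betaTub56D 1996 bp upstream, and betaTub60D has none.

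Sites inside the tubulin genes, away from their annotated ends, were listed in replicate 2 only. Over the whole table such sites were also far rarer in replicate 1. It had 521 pairs of a gene and a sense gene-body site, against 3524 in replicate 2. On the sense strand it had a site 1921 bp into alphaTub84D, 58 bp before its end, and another 1864 bp into gammaTub23C, 103 bp before its end. Sense gene-body sites were thus present at 2 of the 7 tubulin genes of at least 1 FPKM (28.6%, against 22.7% of all such genes). In replicate 2 17.8% of sense gene-body sites lay within 200 bp of the gene end. alphaTub84B had an antisense site 627 bp inside the gene in replicate 2, and a site on its own strand 914 bp upstream in replicate 1. The upstream site lay past the 5' end of CG1091, an opposite-strand gene across a gap of 515 bp. At gammaTub37C the single site nearby, 317 bp upstream on the opposite strand in replicate 2, coincided with the annotated end of its neighbour pigeon, which had 10.8 FPKM in Sample3 and 7.16 FPKM in Sample4. No row of the table overlapped any of the 10 tubulin genes.

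Most genes whose products fold tubulin, seed microtubules, associate with them, move along them or resemble tubulin were transcribed. Of 60 such genes outside the set, 57 (95%) had at least 1 FPKM in both libraries, against 50.7% of all genes, and their medians were 17.7 FPKM in Sample3 and 17.2 FPKM in Sample4. Sites at annotated ends were called for 23 of the 60 in replicate 1 (38.3%, against 24.5% of all genes and 44.4% of genes reaching 1 FPKM in each library). In replicate 2 they were called for 21 (35%, against 14.8% and 27.2%). The exceptions below 1 FPKM in a library were the neuronal microtubule proteins futsch (0.231 and 0.419 FPKM) and tau (0.054 and 0.024 FPKM) and the tubulin-like CG32396 (0.984 and 0.713 FPKM). The other tubulin-like gene, CG7794, had 1.37 and 1.69 FPKM.

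All 8 subunit genes of the CCT chaperonin, which folds newly made tubulin and actin, were above 1 FPKM. Their medians were 51.6 and 53.0 FPKM (Sample3 and Sample4). They ranged from 42.1 to 61.5 FPKM in Sample3 and more widely, from 23.8 to 80.2 FPKM, in Sample4. Cctgamma was highest with 70.8 ± 13.2 FPKM and CG5525 lowest with 33.0 ± 12.9 FPKM (SD, n = 2). The 5 folding cofactor genes, whose products act on tubulin after the chaperonin, had medians of 20.4 and 20.8 FPKM. They ranged from CG31961 (cofactor C) at 13.6 ± 1.12 FPKM to CG1890 (cofactor A) at 69.0 ± 18.6 FPKM.

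All 6 genes of the gamma-tubulin complex were above 1 FPKM, with medians of 7.81 and 5.10 FPKM (Sample3 and Sample4), below gammaTub23C in each library. Grip71 was highest with 12.7 ± 3.69 FPKM, above gammaTub23C in Sample3 (15.3 against 14.1 FPKM) and below it in Sample4 (10.1 against 13.4 FPKM), and Grip128 lowest with 4.0 ± 0.897 FPKM (SD, n = 2). The 8 augmin genes, whose complex branches spindle microtubules, lay between dgt5 at 6.801 ± 0.313 FPKM and dgt2 at 19.1 ± 5.61 FPKM. Among 17 microtubule-associated protein genes Jupiter was highest with 126 ± 36.3 FPKM. Of the 14 motor protein genes, ncd, a minus-end kinesin of the spindle, led with 61.8 ± 16.9 FPKM and unc-104, a synaptic vesicle kinesin, was lowest with 2.52 ± 0.146 FPKM.

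**Figure D5:**
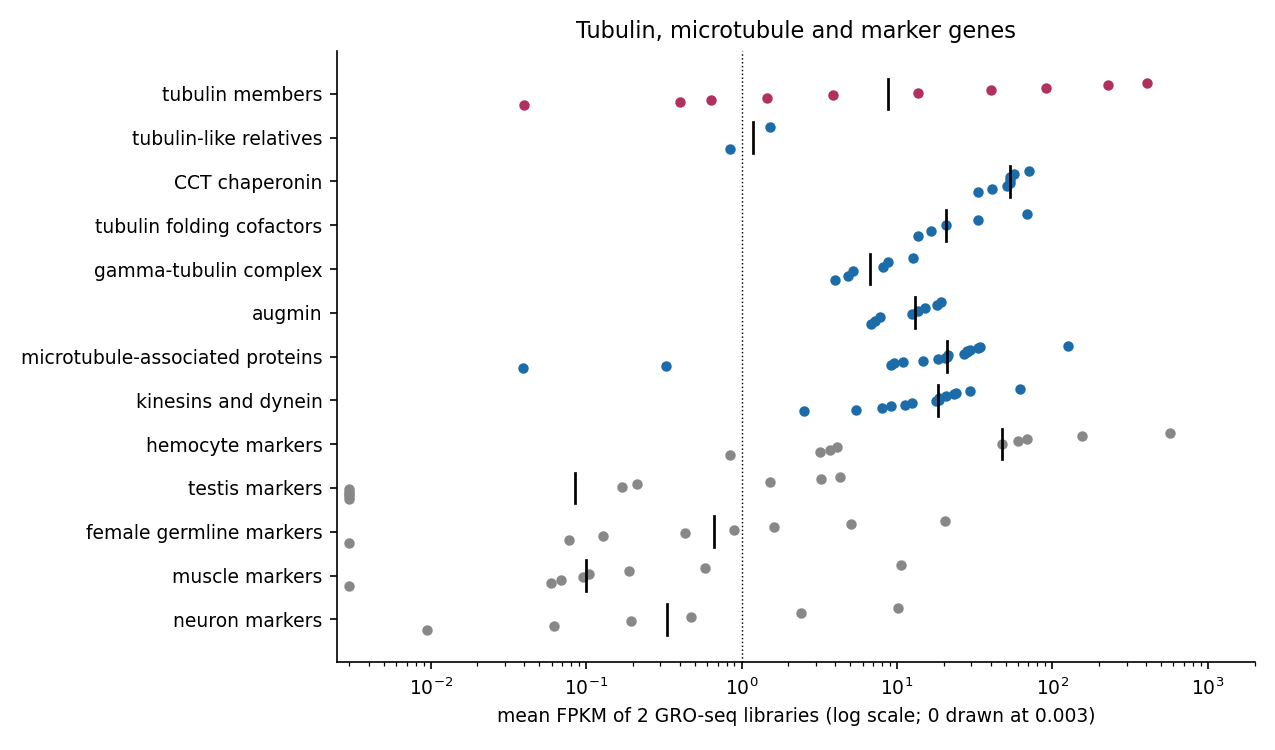
Mean FPKM over both GRO-seq libraries (log scale) of the tubulin genes, of microtubule gene lists and of cell type markers, with 1 point per gene, a black bar at the list's median and a dotted line at 1 FPKM. Tubulin genes spread from 0.040 to 408 FPKM, the CCT chaperonin genes from 33.0 to 70.8 FPKM, and most testis, muscle and neuron markers lie below 1 FPKM.

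The genes nearest in level to the leading tubulins were sought by distance in log2(FPKM + 1) over both GRO-seq libraries. For alphaTub84B these were the ribosomal protein genes RpL36 (372 and 427 FPKM in Sample3 and Sample4) and RpS23 (390 and 438 FPKM) and the chaperone gene Hsp83 (413 and 436 FPKM), at distances of 0.048, 0.059 and 0.143. For betaTub56D they were ERp60, a protein disulfide isomerase gene (165 and 263 FPKM), HLH106, the fly SREBP (185 and 271 FPKM), and RpS27A (181 and 260 FPKM), at 0.150, 0.215 and 0.224. With 2 libraries of the same condition, this likeness is of level only.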

How the data were processed

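Nascent RNA of S2 cells was measured in 2 5'GRO-seq and 2 GRO-seq libraries. HOMER (4.7), Bowtie2 (2.1.0) and CASAVA (1.8.2) are listed without a role in the submitters' processing notes, as is the genome build dm3. The authors deposited GRO-seq values as FPKM for 1 RefSeq transcript per gene. Low values were multiplied by the span less 1 bp (end minus start). Of these, 99.95% of 3671 in Sample3 and 99.93% of 4511 in Sample4 were then whole reads within 0.1 read. With both end bases counted the shares were 98.74% and 98.8%. The former length gave the totals, read numbers and 95% exact Poisson intervals. These reads entered no count test. Start sites were called by the authors per library by HOMER in its TSS style, as recorded per the file headers. The deposited score column is constant at 1, so sites have no score. The centre of each interval was taken as the start.

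The 10 genes, the gene lists and the isoform classes were chosen with earlier results of these data known. All 10 were named, with the highest and lowest of each list and the 3 genes nearest to the leading alpha and beta genes; lists of up to 8 genes could be named in full. futsch and the marker genes were named after their values were seen. With 1 condition and 2 libraries per assay, levels and sites were described without tests. Read recovery and site matching were tested on simulated data. Names of all 10 genes were matched by accession in a RefSeq table of a later assembly. Core promoter motifs, planned from promoter sequence, were not analysed here. Computation ran in Python (3.11.15) with pandas (2.3.3), numpy (2.4.6) and scipy (1.17.1), and plots were drawn with matplotlib (3.10.9).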

Additional observations from a re-analysis of the deposited data

How the results depend on the processing

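Of 48 alternative values for 15 results, 4 were counted as moved and 44 as not moved. The 44 included ratios of the lowest general to the highest maternal or testis gene of 6.95 and 13.9, beside 9.35 in the main setting. They also included counts for microtubule gene lists whose genes mostly lay well above 2 FPKM, which these settings could hardly change. The number 44 thus says little on its own. By reads per gene in place of FPKM, 5 of the 10 tubulin genes kept their place in the order of levels, since this drops the division by span; with either GRO-seq library left out, 8 did. The number of tubulin genes of at least 1 FPKM was 7 at a threshold of 0.5 FPKM, 6 at 2 FPKM, and 7 to 8 with a library left out. The ratio of the lowest general to the highest maternal or testis gene ranged from 6.95 without Sample3 to 13.9 without Sample4. The first part of each list (its upper 50%) in file order gave 3 tubulin genes with a site in replicate 1 and 1 in replicate 2. Windows of 50 to 500 bp gave the same 4 tubulin genes with a site in replicate 1 and 1 in replicate 2. A window of 2000 bp, chosen after seeing the data, gave 5 and 3, and 2 shared sites in place of 1, since it takes in the upstream betaTub56D site and, in replicate 2, the site near the end of alphaTub84D. At 2 FPKM, 0 of the 2 tubulin-like relatives remained. No paired analysis was possible because the GRO-seq columns carry no replicate number and no result comes from a test between groups. Depth limits alphaTub67C, alphaTub85E, gammaTub37C and betaTub85D, which had at most 17 reads in a library.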

Other observations

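Neighbours of the tubulin genes differed widely in level. CG9641, which abuts the end of gammaTub23C with a gap of 0 bp on the opposite strand, had 46.8 FPKM in Sample3 and 31.9 FPKM in Sample4. Rrp1, divergent from gammaTub23C across 382 bp, had 21.6 and 42.7 FPKM. CG1091, divergent from alphaTub84B across 515 bp, had 18.8 and 16.3 FPKM. Around betaTub85D and alphaTub85E, the nearest row on each side was at 0.155 FPKM or less in both libraries. betaTub60D stood alone, with gaps of 7769 bp to CG3394 upstream (26.7 and 8.36 FPKM) and 11927 bp to CR44810 downstream (0.058 and 0.077 FPKM).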
